A study of Mus musculus with 8 samples.

Results

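The 10 chemokine ligand genes Ccl2, Ccl3, Ccl4, Ccl6, Ccl7, Ccl8, Ccl9, Cxcl12, Cxcl14 and Cxcl16 were followed in brown adipose tissue (BAT). They were taken by symbol from a table of 31053 genes, and each of the 10 was found. The libraries were bulk RNA-seq of BAT from male mice on a C57BL6/J background, 4 of them WT and 4 Ucp1Δ/Δ. Ucp1Δ/Δ mice carry floxed alleles of Pnpla2, which encodes the triglyceride lipase ATGL, and a Cre recombinase transgene under the Ucp1 promoter, so that ATGL is lost in UCP1-expressing thermogenic adipocytes and other cells of the tissue keep the gene. The labels name this genotype ATGLKO and give an age of 10 weeks, whereas the legend of the study gives a younger age. Whether the WT mice carried floxed alleles was not given in the sources used here. The labels name BAT as the source and the stromal vascular fraction as the cell type. However, 8 brown adipocyte genes summed to between 9942 and 23366 CPM (counts scaled to the size of each library) in the 8 libraries. They were Ucp1, Cidea, Elovl3, Ppargc1a, Cox8b, Adipoq, Plin1 and Fabp4, and the sum does not give the part of each.

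Chemokines are small secreted proteins that guide leukocytes along a gradient by binding G protein-coupled receptors. The CC ligands of this group mainly attract monocytes, macrophages and lymphocytes, and the CXC ligands range from retention signals made by stromal cells to membrane-anchored proteins of myeloid cells. In adipose tissue, chemokines are made by macrophages, stromal cells and adipocytes, and CCL2 acting on CCR2 is a known route of monocyte entry.

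Each library held between 2017697 and 3115956 counts, of which 38.4% to 45.6% fell on mitochondrially encoded genes. At this depth, 3 counts corresponded to between 0.933 and 1.53 CPM, a floor that covers counting error only. Pnpla2 was measured first as a check of the labels: its level was 2913 ± 191 CPM (SD, n = 4) in WT and 474 ± 59.2 CPM (SD, n = 4) in Ucp1Δ/Δ mice. Levels of skeletal muscle genes varied widely within both genotypes, from 15.0 to 1177 summed CPM in WT and from 46.8 to 1552 in Ucp1Δ/Δ mice.

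Of the 10 genes, 8 lie on chromosome 11 of mm10, and all are annotated as protein coding. Ccl9 (83572919 to 83578636) and Ccl6 (83587882 to 83593087), both on the minus strand, are neighbours 9245 bases apart with 0 protein-coding genes between them. Ccl3 (83647844 to 83649355, minus strand) and Ccl4 (83662584 to 83664683, plus strand) follow in the same stretch. Ccl2 (82035571 to 82037453), Ccl7 (82045712 to 82047525) and Ccl8 (82115185 to 82116799), all on the plus strand, form a second stretch of chromosome 11, and Ccl8 is 1456119 bases from Ccl9. Cxcl16 lies apart from both at 70453983 to 70459984 on the minus strand of chromosome 11, Cxcl12 on the plus strand of chromosome 6 from 117168535 to 117181367, and Cxcl14 on the minus strand of chromosome 13 from 56288643 to 56296551.

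Stretches before the start sites are shown for 4 genes, because Ccl6 and Ccl9 had the largest fold changes among the ligands with enough counts to be tested, and Cxcl12 and Cxcl14 the smallest. Each is the 250 bases before the transcription start from RefSeq (GRCm38.p6), written 5′ to 3′ on the strand of the gene. In Ccl6 and Ccl9, capitals mark bases that are identical between them in their best local alignment.
Ccl6, chr11:83593088-83593337, minus strand: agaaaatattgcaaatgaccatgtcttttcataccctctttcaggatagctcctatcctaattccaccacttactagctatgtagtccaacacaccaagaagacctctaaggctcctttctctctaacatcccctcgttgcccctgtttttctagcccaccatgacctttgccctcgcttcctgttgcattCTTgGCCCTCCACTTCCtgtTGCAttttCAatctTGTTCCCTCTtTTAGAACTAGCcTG
Ccl9, chr11:83578637-83578886, minus strand: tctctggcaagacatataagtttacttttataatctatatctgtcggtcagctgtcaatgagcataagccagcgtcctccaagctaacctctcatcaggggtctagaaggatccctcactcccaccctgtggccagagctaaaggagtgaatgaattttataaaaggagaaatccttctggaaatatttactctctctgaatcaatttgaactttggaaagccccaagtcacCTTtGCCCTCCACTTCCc
In Cxcl12 and Cxcl14, capitals mark CG dinucleotides.
Cxcl12, chr6:117168285-117168534, plus strand: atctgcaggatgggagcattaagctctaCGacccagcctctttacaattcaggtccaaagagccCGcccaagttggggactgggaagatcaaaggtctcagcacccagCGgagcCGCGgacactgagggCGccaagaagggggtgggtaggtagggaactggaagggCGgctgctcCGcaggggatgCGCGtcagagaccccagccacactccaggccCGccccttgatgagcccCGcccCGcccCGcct
Cxcl14, chr13:56296552-56296801, minus strand: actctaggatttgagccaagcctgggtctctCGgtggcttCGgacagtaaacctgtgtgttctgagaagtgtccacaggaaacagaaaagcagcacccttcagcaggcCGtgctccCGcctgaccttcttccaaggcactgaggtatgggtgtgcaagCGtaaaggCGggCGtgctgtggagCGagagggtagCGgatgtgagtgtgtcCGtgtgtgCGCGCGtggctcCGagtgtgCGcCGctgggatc

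The alignment of Ccl6 with Ccl9 was made on windows of 300 bases that also hold the first transcribed bases. It ran over 74 columns with 58 identical, and joined base -59 of Ccl6 to base -18 of Ccl9, so the related stretch lies across the annotated start of both genes at shifted positions. The windows of 6 of the 10 genes were examined here (also Ccl3 and Ccl8). The score of this alignment was 83, against 18 to 30 for the other pairs. The CC ligands were poor in CG: Ccl6, Ccl9 and Ccl3 held 2 CG dinucleotides in 250 bases and Ccl8 held 1, whereas Cxcl12 held 14 and Cxcl14 held 16, against a median of 6 over 32851 promoters.

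Letter patterns of known binding sites were searched on both strands of these windows. TATAAA, the core of a TATA box, occurred in Ccl8 and Ccl9, and in 12.4% of all promoters. GGGNNNNNCC, a loose form of the NF-kappaB site, occurred in Ccl9 and Cxcl12, and in 45.8% of all promoters. TGANTCA, a loose form of the AP-1 site, occurred in Ccl9 with A at the N, and in 6.75% of all promoters. GAGGAA, the core bound by the myeloid factor PU.1, occurred in Ccl3 and Ccl8, and in 23.3% of all promoters.

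**Figure D1:**
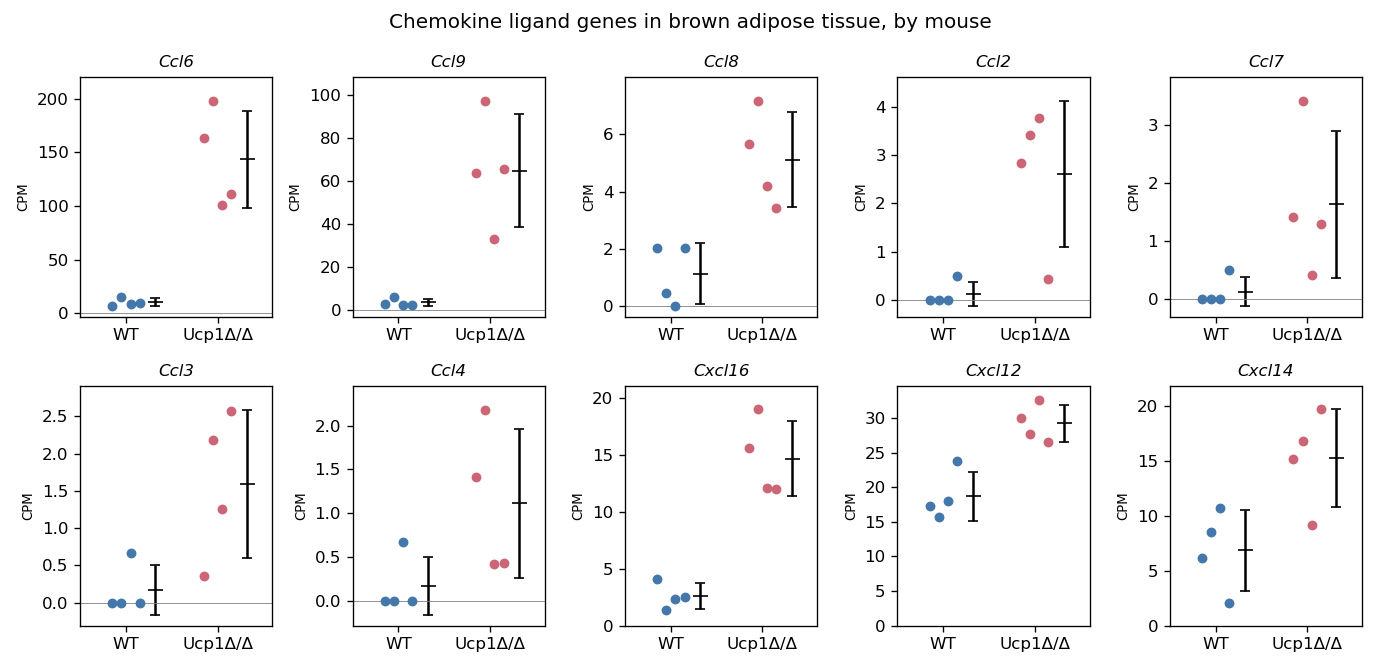
Level of each chemokine ligand gene in CPM (vertical axis, including 0, with a separate scale for each gene) in the 4 WT and 4 Ucp1Δ/Δ mice. Points are mice and the bar beside them is the mean ± SD. The genotypes are separate for Ccl6, Ccl9, Ccl8, Cxcl16 and Cxcl12, and 3 of the 4 WT mice are at 0 for Ccl2, Ccl7, Ccl3 and Ccl4.

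The ligands were ordered by role, starting with Ccl6 and Ccl9, rodent CC chemokines of myeloid cells that act on CCR1. Ccl6 (ENSMUSG00000018927) was at 6.63, 15.2, 8.68 and 9.62 CPM in WT mice 1 to 4 and at 164, 198, 101 and 111 CPM in Ucp1Δ/Δ mice 1 to 4. The lowest Ucp1Δ/Δ mouse was far above the highest WT mouse. Its mean rose from 10.0 ± 3.68 to 143 ± 45.6 CPM (SD, n = 4). The log2FC was 3.83 ± 0.28 (SE), with an adjusted p of 5.18e-07 in the quasi-likelihood test of edgeR over 8930 genes (Benjamini-Hochberg). Ccl9 (ENSMUSG00000019122) was at 3.06, 6.27, 2.67 and 2.53 CPM in WT mice and at 64.0, 97.4, 33.0 and 65.7 CPM in Ucp1Δ/Δ mice. The genotypes again did not overlap, and in both genes the second Ucp1Δ/Δ mouse was the highest and the third the lowest of its genotype. The mean of Ccl9 rose from 3.63 ± 1.77 to 65.0 ± 26.3 CPM (SD, n = 4), and its log2FC was 4.16 ± 0.36 (SE; edgeR, adjusted p = 1.48e-06).

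By size of the log2FC, Ccl9 ranked 25 and Ccl6 ranked 38 from the top of the 8930 genes tested. The ratio of Ccl6 to Ccl9 counts within a mouse was compared as one of 7 pairs of ligands. On the log2 scale it was 1.44 ± 0.35 (SD, n = 4) in WT and 1.18 ± 0.38 (SD, n = 4) in Ucp1Δ/Δ mice (two-sided exact permutation test, p = 0.371, adjusted over the 7 pairs to 0.714), a difference smaller than the spread between mice. No stretch of 50 bases in Ccl6 transcripts was found in those of another gene, and 1.97% of such stretches in Ccl9 were.

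Ccl2 and Ccl7, ligands of CCR2 that draw monocytes out of the blood, were close to 0 in WT mice. Ccl2 (ENSMUSG00000035385) had 0, 0, 0 and 1 counts in WT mice 1 to 4 and 8, 11, 9 and 1 counts in Ucp1Δ/Δ mice 1 to 4. The first 3 Ucp1Δ/Δ mice were above every WT mouse and the fourth was at the level of WT mouse 4. Per count sequenced, the pooled rate was 24.7 times higher in Ucp1Δ/Δ mice, with a 95% counting interval from 4.09 to 1008. Ccl7 (ENSMUSG00000035373) had 0, 0, 0 and 1 counts in WT and 4, 11, 1 and 3 counts in Ucp1Δ/Δ mice, a pooled ratio of 16.2 (95% counting interval 2.57 to 672). For both genes the levels of the genotypes overlapped at 1 mouse (two-sided exact permutation test on log2 CPM, p = 0.0571 for each).

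Ccl8 (ENSMUSG00000009185), a neighbour of Ccl2 and Ccl7 that in the mouse acts on CCR8, had 4, 1, 0 and 4 counts in WT and 16, 23, 10 and 8 counts in Ucp1Δ/Δ mice. Every Ucp1Δ/Δ mouse was above every WT mouse. The mean was 1.13 ± 1.06 CPM in WT and 5.11 ± 1.65 CPM in Ucp1Δ/Δ mice (SD, n = 4; two-sided exact permutation test on log2 CPM, p = 0.0286, the smallest that 4 mice against 4 allow), and the pooled ratio was 5.39 (95% counting interval 2.65 to 12.4). Ccl3 (ENSMUSG00000000982), an inflammatory chemokine that acts on CCR1, had 0, 0, 2 and 0 counts in WT and 1, 7, 3 and 6 counts in Ucp1Δ/Δ mice, a pooled ratio of 7.24 (95% counting interval 1.72 to 64.6, exact permutation p = 0.0571). Ccl4 (ENSMUSG00000018930), an inflammatory chemokine close to Ccl3, had 0, 0, 2 and 0 counts in WT and 4, 7, 1 and 1 counts in Ucp1Δ/Δ mice, a pooled ratio of 5.53 (95% counting interval 1.25 to 50.5, exact permutation p = 0.0857). Both genes had overlapping genotypes. Of the 5 exact tests on low-count ligands, Ccl8 included, none passed 0.05 after Benjamini-Hochberg adjustment over the 5, with 0.0714 the smallest adjusted p. The counting intervals take no account of the spread between mice.

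These 5 CC ligands had too few counts for the default filter of edgeR with all mice. Ccl8 passed it and was called higher in the edgeR fits without WT mouse 1 (log2FC 2.78, adjusted p = 0.0118) or WT mouse 4 (2.78, adjusted p = 0.00793). The same held without Ucp1Δ/Δ mouse 4 (2.45, edgeR, adjusted p = 0.0156). With every gene kept that had at least 1 count in any mouse, Ccl2 rose with a log2FC of 4.05 (adjusted p = 0.000894, edgeR over 16617 genes, of which 9.81% were higher), Ccl8 with 2.28 (adjusted p = 0.000999) and Ccl7 with 3.42 (adjusted p = 0.017). Ccl3 had a log2FC of 2.61 (adjusted p = 0.0609) and Ccl4 one of 2.18 (adjusted p = 0.174). In this edgeR fit the adjusted p of Ccl6 was 2.29e-38 and that of Ccl9 8.11e-35, against 5.18e-07 and 1.48e-06 with the default filter. That of Cxcl12 was larger, 0.0509 against 0.0277. Adjusted p-values of this fit can therefore be far smaller than those with the default filter for the same counts. DESeq2, which called 10.1% of its 12619 genes higher, called Ccl2 (adjusted p = 0.00962) and Ccl8 (adjusted p = 0.0136), while Ccl7 had an adjusted p of 0.0578, Ccl3 of 0.15 and Ccl4 of 0.303.

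Cxcl16 (ENSMUSG00000018920), a membrane-anchored ligand of CXCR6 that also takes up oxidized lipoprotein, was at 4.08, 1.34, 2.34 and 2.53 CPM in WT mice and at 15.6, 19.0, 12.1 and 12.0 CPM in Ucp1Δ/Δ mice. The genotypes were well apart. Its mean rose from 2.57 ± 1.13 to 14.7 ± 3.31 CPM (SD, n = 4), and its log2FC was 2.53 ± 0.33 (SE; edgeR, adjusted p = 6.13e-05). Over 18.3% of its exonic bases Cxcl16 overlaps Zmynd15 on the other strand, where counts made without strand could not tell them apart, and Zmynd15 itself had 1 count over the WT and 6 over the Ucp1Δ/Δ mice.

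Cxcl12 (ENSMUSG00000061353), a CXCR4 ligand of stromal and endothelial cells that holds leukocytes and progenitors in place, had the smallest fold change. It was at 17.3, 15.7, 18.0 and 23.8 CPM in WT mice and at 30.1, 27.7, 32.6 and 26.6 CPM in Ucp1Δ/Δ mice. The genotypes did not overlap, although the fourth mouse of each came close to the other genotype. Its mean rose from 18.7 ± 3.54 to 29.2 ± 2.66 CPM (SD, n = 4), and its log2FC was 0.65 ± 0.20 (SE; edgeR, adjusted p = 0.0277). The call was lost in 5 of the edgeR fits with 1 mouse left out, though the log2FC stayed between 0.60 and 0.68 in these 5 fits. The adjusted p was 0.0765 without WT mouse 1, 0.0777 without WT mouse 3, and 0.0593, 0.0539 and 0.0703 without Ucp1Δ/Δ mice 1, 2 and 3.

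Cxcl14 (ENSMUSG00000021508), a chemokine of epithelial cells that is also secreted by active brown adipocytes, was at 6.12, 8.51, 10.7 and 2.03 CPM in WT mice and at 15.2, 16.8, 9.19 and 19.7 CPM in Ucp1Δ/Δ mice. The genotypes overlapped, since the third Ucp1Δ/Δ mouse was below the third WT mouse. Its mean rose from 6.84 ± 3.71 to 15.2 ± 4.45 CPM (SD, n = 4), and its log2FC was 1.10 ± 0.36 (SE; edgeR, adjusted p = 0.0394). The low level of WT mouse 4 carried part of this difference: without it the log2FC was 0.81 (adjusted p = 0.0644). The adjusted p was also 0.0898 without WT mouse 1, and 0.0761, 0.0985 and 0.119 without Ucp1Δ/Δ mice 1, 2 and 4.

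Of the 10 ligands, 5 passed the default filter (Ccl6, Ccl9, Cxcl12, Cxcl14 and Cxcl16), and each of them was higher at an adjusted p under 0.05, where 13.3% of the 8930 genes tested were higher and 7.63% lower. The genotypes did not overlap in 4 of these 5, where 14.4% of the genes tested were higher without overlap. The filter keeps a gene that is high in a single genotype, so this count describes the 5 genes and not the group of 10. Counts over the gene lists below carry the same limit. The median log2FC of the genes tested was -0.01.

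**Figure D2:**
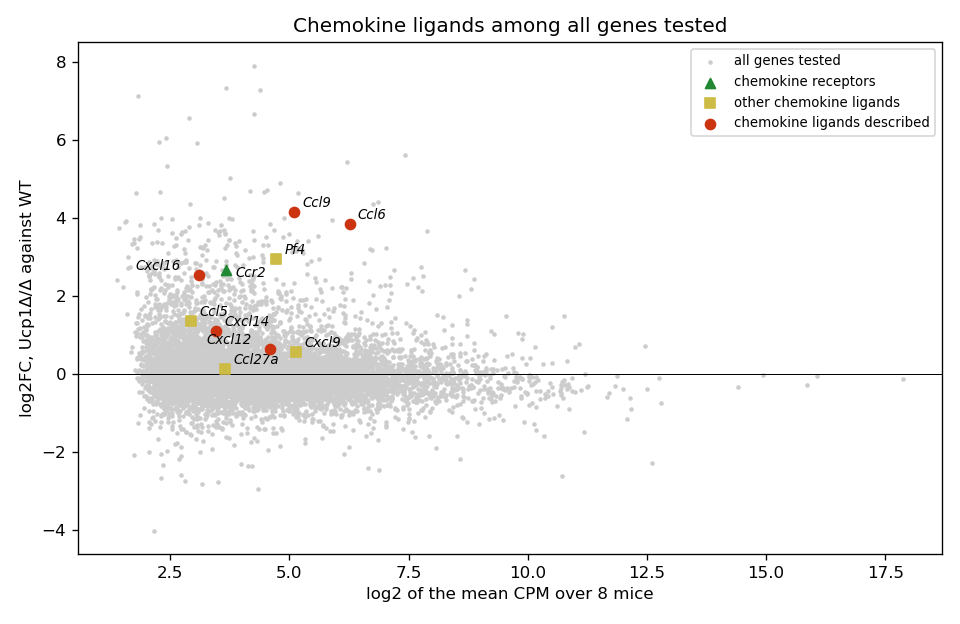
Log2FC of Ucp1Δ/Δ against WT mice (vertical axis) by the log2 of the mean CPM over the 8 mice (horizontal axis) for the 8930 genes tested, in grey. Circles are the 5 ligands that passed the filter, squares the other chemokine ligands tested and the triangle the receptor Ccr2. Ccl9 at 4.16 and Ccl6 at 3.83 lie at the upper edge of the cloud, and Cxcl12 at 0.65 lies within it.

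Of 18 conventional chemokine receptors, some of which bind none of these ligands, 1 was tested. Ccr2, the receptor of Ccl2 and Ccl7 on monocytes, had 1, 10, 7 and 13 counts in WT and 39, 82, 42 and 72 counts in Ucp1Δ/Δ mice, without overlap. Its log2FC was 2.66 ± 0.42 (SE; edgeR, adjusted p = 0.000286). The others described here were chosen because they bind these ligands, after their values were seen. Ccr1, the receptor of Ccl6, Ccl9 and Ccl3, had 0 counts over the WT mice and 0, 3, 1 and 0 in Ucp1Δ/Δ mice. Cxcr4, which binds Cxcl12, had 2, 0, 1 and 3 counts in WT and 11, 23, 12 and 3 in Ucp1Δ/Δ mice. Cxcr6, which binds Cxcl16, had 0, 0, 0 and 1 counts against 6, 2, 1 and 1, and Ccr8, which binds Ccl8, was listed at 0 in every mouse. These receptors other than Ccr2 were not tested with the default filter.

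Among the atypical receptors, which take up chemokines without signalling to migration, 1 of 5 was tested and 0 were called by edgeR (1 at an unadjusted p under 0.05). It was Ackr3, which scavenges Cxcl12, with a log2FC of 1.40 ± 0.57 (SE; edgeR, adjusted p = 0.0992, named after its value was seen). With the replicate number as a block it was called higher (log2FC 1.37, adjusted p = 0.0201), and likewise with at least 1 count in any mouse (1.37, adjusted p = 0.000827). Of 28 other chemokine ligands, 27 were found in the table, 7 were at 0 in every mouse and 4 were tested. Pf4, a platelet and macrophage chemokine, rose from 6.16 to 46.6 CPM, with a log2FC of 2.95 ± 0.29 (SE; edgeR, adjusted p = 4.33e-06). The other three did not pass and were named after their values were seen: Ccl5 with a log2FC of 1.34 (adjusted p = 0.0648), Cxcl9 with 0.57 (adjusted p = 0.0835) and Ccl27a with 0.13 (adjusted p = 0.782). Ccl5 and Cxcl9 were called higher with total counts only (adjusted p = 0.0379 and 0.0351) and with limma voom (adjusted p = 0.0355 and 0.0482). Ccl5 was also called without WT mouse 2 (adjusted p = 0.0125) or Ucp1Δ/Δ mouse 4 (adjusted p = 0.0246), and Cxcl9 without WT mouse 4 (adjusted p = 0.0346). Ccl25, a chemokine of thymus and gut also named after its values were seen, was the ligand lower without overlap, with 12, 21, 10 and 10 counts in WT and 5, 9, 7 and 7 in Ucp1Δ/Δ mice. With all mice it did not pass the filter. Without WT mouse 3 it passed and was called lower, with a log2FC of -1.40 (edgeR, adjusted p = 0.0259). It also passed without Ucp1Δ/Δ mouse 1, 2, 3 or 4, with a negative log2FC, and was not called. The adjusted p was then 0.127, 0.0981, 0.0811 and 0.0785 (edgeR). DESeq2 with all mice did not call Ccl25 either (log2FC -1.22, adjusted p = 0.0876). Cxcl10, Ccl24, Cxcl2 and Ccl22, also named after their values were seen, did not pass the filter and were higher without overlap. Cxcl10 had 0, 3, 1 and 1 counts in WT and 30, 12, 8 and 5 in Ucp1Δ/Δ mice. Ccl22 had 0, 0, 1 and 0 counts in WT and 1, 11, 7 and 1 in Ucp1Δ/Δ mice. Its genotypes were apart only through library size, with 1 count at 0.334 CPM in WT mouse 3 and 1 count at 0.354 CPM in Ucp1Δ/Δ mouse 1. DESeq2 called Cxcl10 (adjusted p = 0.00507), Ccl24 (0.0114) and Cxcl2 (0.0406) higher. Cxcl1, with overlap, was also called (DESeq2, adjusted p = 0.031), and Ccl22 was not (0.0588).

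Over all genes tested, 13.3% were higher and 7.63% lower, with a median log2FC of -0.01. Of 20 genes that carry chemokine receptor signals, 10 were tested, 5 rose and 2 fell, with a median log2FC of 0.55 over the 10. Those with the smallest adjusted p were Dock2, an activator of Rac in leukocytes, with a log2FC of 2.10 (adjusted p = 0.000247), Rac2, the leukocyte Rac, with 2.0 (adjusted p = 0.000255), the arrestin Arrb2 with 1.49 (adjusted p = 0.000313) and the G protein subunit Gnai2 with 0.64 (adjusted p = 0.0148). The 2 that fell were Rgs2, which shortens G protein signals, by 1.30 on the log2 scale (adjusted p = 0.000104), and the receptor kinase Grk3 by 1.11 (adjusted p = 0.00373), all from the edgeR test. Without WT mouse 1, 2 or 4, 8 genes of the list rose. Of 9 proteases that cut chemokines, 5 were tested and 3 rose, where the same 13.3% of all genes tested were higher. Mmp12, a macrophage elastase, had at most 1 count in any WT mouse and 90, 237, 46 and 95 counts in Ucp1Δ/Δ mice (adjusted p = 1.58e-06). Mmp2, a gelatinase, rose with a log2FC of 2.40 (adjusted p = 5.17e-05) and Mmp14, its activator at the cell surface, with 1.43 (adjusted p = 0.000848). Adam10 and Adam17, which shed Cxcl16 from the membrane, had log2FC values of 0.07 (adjusted p = 0.89) and 0.56 (adjusted p = 0.101) and were named after their values were seen.

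Of 16 cytokines, receptors and NF-kappaB factors that induce chemokine genes, 9 were tested, 4 rose and 0 fell, where 13.3% of all genes tested were higher. The median log2FC of the list was 0.64 against -0.01 over all genes tested. The interleukin 1 receptor Il1r1 rose with a log2FC of 1.93 (adjusted p = 0.00252), the macrophage growth factor Csf1 with 2.47 (adjusted p = 0.00319), the NF-kappaB subunit Rela with 0.57 (adjusted p = 0.0283) and the TNF receptor Tnfrsf1a with 0.64 (adjusted p = 0.0384, edgeR). Without WT mouse 1, WT mouse 3, or Ucp1Δ/Δ mouse 2 or 3, 2 genes of the list rose. The inducing cytokines themselves were at or near 0, with Il1a and Il6 at 0 in every mouse and Tnf at 0 in WT and at 2, 3, 1 and 3 counts in Ucp1Δ/Δ mice.

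Marker genes of several cell types moved with the genotype. The counts that rose or fell stand beside 13.3% higher and 7.63% lower over all genes tested. Of 10 macrophage markers, 8 were tested and 7 rose, led by Csf1r with a log2FC of 2.83 (adjusted p = 2.53e-07), Lyz2 with 3.67 (adjusted p = 4.03e-07), Cd68 with 4.64 (adjusted p = 5.16e-07) and C1qa with 3.22 (adjusted p = 5.2e-07, edgeR). Their summed level was 148 to 186 CPM in WT and 1002 to 1590 CPM in Ucp1Δ/Δ mice. Of 6 monocyte markers, 2 were tested and both rose, Fn1 and F13a1, and the list summed to 8.35 to 15.7 CPM in WT and 35.1 to 58.5 CPM in Ucp1Δ/Δ mice. Of 8 stromal progenitor markers, 7 were tested and 6 rose, among them the matrix genes Col1a1 with a log2FC of 2.39 (adjusted p = 6.53e-06), Dcn with 1.27 (adjusted p = 0.000151) and Lum with 2.23 (adjusted p = 0.000224), and Cd34 with 1.31 (adjusted p = 0.000403). The list summed to 313 to 401 CPM in WT and 687 to 1118 CPM in Ucp1Δ/Δ mice. In bulk tissue, more cells of a type and more RNA per cell cannot be told apart.

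**Figure D3:**
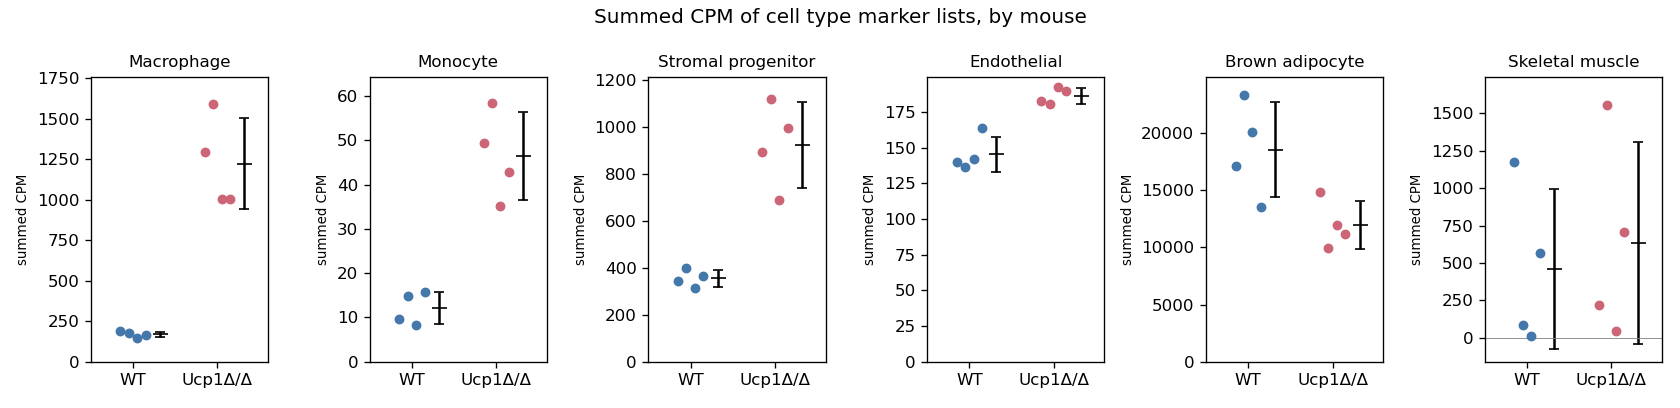
Summed CPM of 6 lists of cell type markers (vertical axes, each with its own scale) in the 4 WT and 4 Ucp1Δ/Δ mice, with the mean ± SD beside the points. Macrophage markers are at 148 to 186 CPM in WT and at 1002 to 1590 CPM in Ucp1Δ/Δ mice, and skeletal muscle markers vary within both genotypes.

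The other leukocyte lists were low. Of 6 neutrophil markers 0 were tested, Mpo and Ly6g were at 0 in every mouse, and the list summed to 1.01 to 7.62 CPM in WT and 1.72 to 5.91 CPM in Ucp1Δ/Δ mice. Of 7 T and NK cell markers 0 were tested (3.67 to 9.41 CPM in WT and 7.94 to 19.8 in Ucp1Δ/Δ mice). Of 5 B cell markers 1 was tested and rose, Ighm (named after its value was seen), and Cd79a was at 0 in every mouse (2.04 to 5.38 and 6.44 to 20.9 CPM). Of 6 dendritic cell markers 2 were tested and 1 rose, the integrin Itgax, which macrophages can also express (named after its value was seen; 17.2 to 29.6 and 26.5 to 42.9 CPM). Of 5 endothelial markers tested edgeR called 0, 2 had an unadjusted p under 0.05 and limma voom called 1 (136 to 164 and 180 to 193 CPM), 2 of 5 mural cell markers rose (185 to 283 and 290 to 328 CPM), and 4 of 8 brown adipocyte markers fell. The part of these cell types in the chemokine levels was not tested.

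The ligands were then set against the markers within each mouse, as counts of the ligand per 1000 counts of the 10 macrophage markers. Such a ratio shows unequal change of ligand and markers, not a change of either alone. The markers did not rise by equal amounts. Cd68 rose by more on the log2 scale than Ccl6 or Ccl9, and Csf1r by less. The direction of the ratio of these ligands therefore depends on the markers summed. Ccl6 was at 35.7, 86.5, 58.8 and 58.1 in WT and at 126.5, 124, 101 and 110 in Ucp1Δ/Δ mice, higher without overlap. Its log2 difference was 0.98 (two-sided exact permutation test, p = 0.0286). Ccl9 was at 16.5, 35.6, 18.1 and 15.3 in WT and at 49.5, 61.3, 32.9 and 65.5 in Ucp1Δ/Δ mice, where the second WT mouse reached the lowest Ucp1Δ/Δ mouse (log2 difference 1.24, exact permutation p = 0.0571).

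Cxcl16 overlapped between genotypes on this scale. It was at 22.0, 7.63, 15.8 and 15.3 per 1000 in WT and at 12.0, 11.9, 12.1 and 12.0 in Ucp1Δ/Δ mice (log2 difference -0.36, exact permutation p = 0.2). The 4 Ucp1Δ/Δ values lay closer together than counting error alone would place counts of 28 to 61. Cxcl12 was lower without overlap, at 93.4, 89.1, 122 and 144 per 1000 in WT and at 23.2, 17.4, 32.5 and 26.6 in Ucp1Δ/Δ mice (log2 difference -2.18, exact permutation p = 0.0286). Cxcl14 was at 33.0, 48.3, 72.4 and 12.2 in WT and at 11.7, 10.6, 9.17 and 19.7 in Ucp1Δ/Δ mice (log2 difference -1.54, exact permutation p = 0.0571). After Benjamini-Hochberg adjustment over the 5 ratios, none passed 0.05, with 0.0714 the smallest adjusted p.

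**Figure D4:**
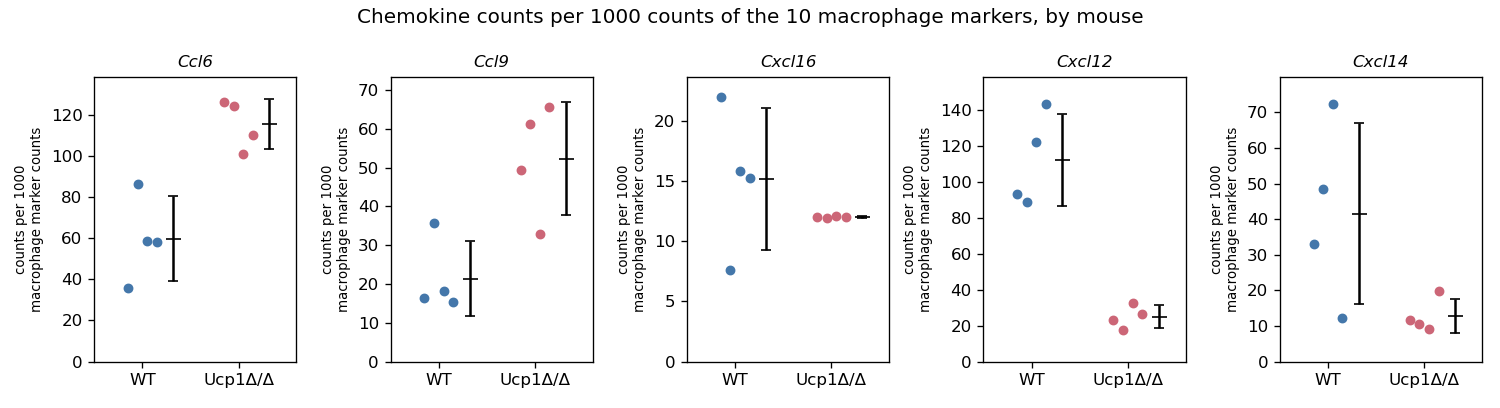
Counts of each ligand per 1000 counts of the 10 macrophage markers (vertical axes, from 0, each with its own scale) in the 4 WT and 4 Ucp1Δ/Δ mice, with the mean ± SD beside the points. Ccl6 is higher and Cxcl12 lower in Ucp1Δ/Δ mice without overlap, and Cxcl16 is between 11.9 and 12.1 in the 4 Ucp1Δ/Δ mice.

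The same was done with the 8 stromal progenitor markers. Ccl6 and Ccl9 were higher without overlap, with log2 differences of 2.46 and 2.71 (exact permutation p = 0.0286 in either case). Cxcl16 had a log2 difference of 1.12 and Cxcl12 one of -0.71, both with overlap (exact permutation p = 0.0571 for each). Cxcl14 had a log2 difference of -0.07 (exact permutation p = 0.914). None passed 0.05 after adjustment over the 5 ratios, with 0.0714 again the smallest. Within the mice, the ratio of Cxcl12 to Cxcl16 fell without overlap, from 2.83 ± 0.58 to 1.01 ± 0.37 on the log2 scale (SD, n = 4; exact permutation p = 0.0286, adjusted over the 7 pairs of ligands to 0.2).

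The genes whose log2 CPM followed each tested ligand most closely over the 8 mice were found by the root mean square difference after centring on the WT mean, as a description with no test. For Ccl6 they were Lyz2 (0.26), Tyrobp (0.30) and Cotl1 (0.30), and for Ccl9 Tyrobp (0.28), Lyz2 (0.33) and Ctss (0.41), so both shared the myeloid genes Lyz2 and Tyrobp. For Cxcl16 they were Sept8 (0.22), Nav1 (0.24) and Timp2 (0.26). Cxcl12 was followed by Irf2bpl (0.12), Napg (0.13) and Gpihbp1 (0.13), the last a gene of capillary endothelium, and Cxcl14 by Tbcd (0.30), Trim67 (0.34) and Arhgef2 (0.37). With 8 mice in 2 genotypes, these distances depend mostly on the difference between genotypes.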

How the data were processed

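BAT of 4 WT and 4 Ucp1Δ/Δ mice was profiled by single-end digital mRNA-seq from total RNA. Per the study's methods the authors used bbduk for trimming, STAR for alignment to mm10 and HTseq-counts for counting. The deposited counts are whole numbers per Ensembl gene. The submitters' processing notes name Trimmomatic, HISAT2 and DESeq2 instead, which the values could not settle. Strand setting and annotation release were not given in the sources used here. The authors also deposited log2 values (count times 1 factor per mouse, plus 1), which were used in 1 alternative.

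Symbols came from GENCODE and matched 30934 of 31053 genes. Counts were filtered with filterByExpr, scaled by TMM and tested on genotype with the quasi-likelihood test of edgeR 4.0.16 (R 4.3.3) and Benjamini-Hochberg adjustment at 0.05. The standard error is the log2FC over the square root of F. TMM factors entered the CPM, and 2 was the prior count for log2 CPM. Ratios within a mouse use an offset of 0.5. Pooled rate ratios carry Clopper-Pearson conditional intervals at 95%. Alternatives were other scaling, filters, thresholds, DESeq2 1.42.0, limma 3.58.1 (voom with sample weights, trend), the replicate number as a block and each mouse left out. Scripts were tested on simulated data. Local alignments scored a match 2, a mismatch -2, a gap opening -5 and its extension -1.

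The genes and lists were chosen with earlier results of these data known. The rule named the 10 ligands, Pnpla2, up to 4 genes per direction in each pathway, macrophage, monocyte and stromal list, and the 3 genes of at least 10 CPM nearest to each tested ligand. The sequences printed are RefSeq's. Libraries differed by more than counting error, so none was counted as a duplicate. 1 receptor gene is not reported here.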

Additional observations from a re-analysis of the deposited data

Results flagged for a closer look

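Single mice standing apart from the other three of their genotype were sought in 54 groups of 4 mice, by the gap to the nearest mouse over the range of the group (critical value 0.829). This met 6 groups, where chance gives about 1 in 20, or 2.7. Of these, 4 are single WT mice with 1 or 2 counts where the other three had 0, which makes the gap ratio 1.0 by construction: Ccl2 in WT mouse 4 (1 count), Ccl7 in WT mouse 4 (1 count), Ccl3 in WT mouse 3 (2 counts) and Ccl4 in WT mouse 3 (2 counts).

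Ccl9 counts relative to macrophage marker counts were high in WT mouse 2, with a gap ratio of 0.829, at -4.76 on the log2 scale against -5.90 to -5.70 in the other WT mice. Cxcl16 counts relative to stromal progenitor marker counts were low in Ucp1Δ/Δ mouse 4, with a gap ratio of 0.877, at -6.35 on the log2 scale against -5.87 to -5.80 in the other Ucp1Δ/Δ mice.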

How the results depend on the processing

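Of 334 values recomputed for 27 main results, 313 were the same, 13 lost the threshold, 8 moved and 0 were marked reversed. Fold changes, and ratios with all mice, were the same if direction and side of the threshold held, and counts if within 1.5 times. A ratio with a mouse left out was the same if it shifted by less than the SD between mice. It was marked reversed only for a main adjusted p under 0.05, which no ratio had. With a mouse left out, the log2 difference changed sign for Ccl2/Ccl7 (-0.10 to 1.19) and Ccl2/Ccl8 (-0.10 to 0.95). It also did for Ccl3/Ccl4 (-0.12 to 1.11) and Cxcl14 per stromal progenitor markers (-0.56 to 0.26). Of 578 values for 34 counts over the gene lists, 530 were the same and 48 moved. Asking for at least 10 counts in every mouse removed Ccl9, Cxcl14 and Cxcl16, which left 2 ligands higher in place of 5, and 746 genes higher and 449 lower. Scaling by total counts only left 404 genes lower, moved the median log2FC of all genes to 0.13 from -0.01 and the share of higher calls to 78.5% from 63.6%; the log2FC of Cxcl12 was then 0.78 and that of Cxcl14 was 1.24. A log2FC beyond 1 left 227 genes lower. The log2FC of Cxcl12 was 0.62 (adjusted p = 0.0509, edgeR) with at least 1 count in any mouse and 0.61 (adjusted p = 0.0537) with DESeq2. Deviations of WT and Ucp1Δ/Δ mice of the same replicate number correlated at -0.09, -0.20, 0.30 and 0.24 for numbers 1 to 4. Mice of unlike number were not compared, so whether the numbers pair the mice was not settled. With the replicate block 1138 genes were higher and 581 lower. The log2FC of Cxcl14 was then 1.12 (edgeR, adjusted p = 0.0668) and Ackr3 was called (1.37, adjusted p = 0.0201).

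With each mouse left out in turn, 3 to 5 ligands were higher (3 without Ucp1Δ/Δ mouse 1 or 2), 945 to 1304 genes were higher and 400 to 851 lower (400 without Ucp1Δ/Δ mouse 2). The ligands counted were not always the same, since Ccl8 was among them without WT mouse 1, WT mouse 4 or Ucp1Δ/Δ mouse 4. The log2FC lay between 0.56 and 0.77 for Cxcl12, 0.81 and 1.42 for Cxcl14, 3.65 and 4.09 for Ccl6, 3.90 and 4.54 for Ccl9 and 2.32 and 2.79 for Cxcl16. The number of genes called higher in the lists moved by over 1.5 times in these settings: with at least 1 count in any mouse and with DESeq2, 8 and 5 other ligands (1 in the report), 3 and 3 receptors (1) and 10 and 10 signalling genes (5) were higher; with at least 10 counts in every mouse 0 receptors, 3 signalling genes and 1 protease were; with total counts only 7 cytokine and NF-kappaB genes (4) were; and with total counts only or limma voom 3 other ligands were. Without any 1 of the WT mice or Ucp1Δ/Δ mouse 3, 2 receptors were higher, and without WT mouse 2, WT mouse 4 or Ucp1Δ/Δ mouse 4, 2 other ligands were; without WT mouse 3, 1 other ligand was lower. The causes of the lost calls of Cxcl12 and Cxcl14 were not tested. Depth limits Ccl2, Ccl3, Ccl4 and Ccl7 most: their levels in WT mice were at or under the 3-count floor.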
